A study of Mus musculus with 8 samples.

Results

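Ion channel genes were followed in cultured mouse muscle stem cells in which the chromatin remodeller Chd4 had been deleted. The set comprised every row of the deposited expression table whose gene name begins with Cacna1, Cacnb, Cacng or Cacna2d, with Scn and a digit, or with Kcn and a further letter, leaving out Cacna1s. It held 90 of the 20976 rows, of which 19 were calcium channel, 12 sodium channel and 59 potassium channel genes. One of the 90, Kcnq1ot1, is a non-coding RNA named after the gene it overlaps, and the others are protein-coding. In GENCODE M21, 138 gene names match the same wording, and those without a row in the table were not analysed here.

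Voltage-gated calcium and sodium channels are built around a single large pore-forming alpha subunit, to which beta, alpha2delta and gamma subunits (calcium) or small beta subunits (sodium) attach. Potassium channels are assembled from separate subunits and fall into voltage-gated (Kv), calcium-activated, inwardly rectifying (Kir) and 2-pore leak families. In adult muscle fibres Nav1.4, the product of Scn4a, carries the action potential. In myoblasts, potassium currents that hyperpolarise the membrane and low-threshold T-type calcium currents have been tied to the onset of differentiation.

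The cells were sorted by flow cytometry from mice carrying Chd4 with loxP sites on both alleles (Chd4LoxP/LoxP), grown briefly in medium with fetal calf serum and bFGF, and infected with adenovirus. The Cre group (4 libraries) received a virus for Cre recombinase, which removes Chd4 exons 12 to 21. The GFP group (4 libraries) received a GFP virus and so carried the same floxed alleles unrecombined. Each condition used 4 mice, and age, sex and strain are not given in the labels. No group combined Cre with an intact Chd4 gene. The labels do not tie a Cre and a GFP library of equal number to the same mouse. Each value is the number of reads assigned to a gene after scaling of the libraries to each other and rounding, called normalised reads below.

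Scaled library totals lay between 27897860 and 28876348, and the original depth estimated from gaps in the low values lay between 23.3 and 38 M reads. Chd4 stood at 3686 to 5480 normalised reads in Cre and at 15904 to 20121 in GFP, without overlap and in the direction the labels give. Markers of muscle stem cells and myoblasts were abundant in all 8 libraries (7 of 7 tested, summed level 92447 to 112051). Defining markers of other cells were uneven. Of the neuronal markers Snap25 did not exceed 25 and Syt1 did not exceed 46, whereas Stmn2 reached 1709 and Nefm 2146. The endothelial Cdh5 stayed below 10 and Tek reached 313. Of the pericyte and smooth muscle markers Rgs5 and Notch3 reached 53834 and 14441, whereas Pdgfrb did not exceed 82 and Myh11 stayed below 10. Libraries numbered 1 and 4 carried Xist (at least 40670) and those numbered 2 and 3 carried Y-linked transcripts, in both groups alike. Same-numbered libraries resembled each other strongly, so an unpaired fit, which treats the 8 libraries as independent, is set beside a paired fit, which compares libraries of equal number. Genes described below as called in the paired fit did not pass the unpaired one, other than where stated. Both are limma fits over all 12910 rows that reached 1 CPM (normalised reads relative to the library total, in the usual counts-per-total unit) in at least 4 libraries, with Benjamini-Hochberg adjustment over those rows and a threshold of 0.05.

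Of the 90 channel genes, 47 reached 1 CPM in at least 4 libraries and were tested: 14 of 19 calcium, 8 of 12 sodium and 25 of 59 potassium channel genes. In all 8 libraries 33 reached that level, in at least 1 library 59 did, and 31 did so in none. The group mean reached 1 CPM only in Cre for 8 genes and only in GFP for 1. In bulk RNA, fewer cells that express a channel and less RNA per cell cannot be told apart.

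Sequences upstream of the genes are shown first for 4 members that the paired fit described below called: Cacna1b and Scn4a were higher in Cre, and Kcnf1 and Kcnk2 lower. Each covers 250 bases before to 50 bases after the RefSeq start (GRCm38.p6, minus strand in all 4 cases, read 5′ to 3′ on the gene's strand), and capitals mark every CG dinucleotide.
Cacna1b, chr2:24763103-24763402: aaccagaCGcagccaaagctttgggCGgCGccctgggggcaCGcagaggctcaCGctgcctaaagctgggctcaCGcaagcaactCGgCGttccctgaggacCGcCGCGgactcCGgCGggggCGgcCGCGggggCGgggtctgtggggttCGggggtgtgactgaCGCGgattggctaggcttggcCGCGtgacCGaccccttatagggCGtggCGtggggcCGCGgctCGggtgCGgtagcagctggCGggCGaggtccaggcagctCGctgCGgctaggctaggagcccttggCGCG
Scn4a, chr11:106349341-106349640: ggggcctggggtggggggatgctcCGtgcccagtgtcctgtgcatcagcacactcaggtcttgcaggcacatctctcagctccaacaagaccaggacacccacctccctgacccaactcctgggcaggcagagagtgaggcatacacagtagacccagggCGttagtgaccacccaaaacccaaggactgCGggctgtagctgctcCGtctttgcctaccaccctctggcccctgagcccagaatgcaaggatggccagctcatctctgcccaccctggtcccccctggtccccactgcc
Kcnf1, chr12:17176839-17177138: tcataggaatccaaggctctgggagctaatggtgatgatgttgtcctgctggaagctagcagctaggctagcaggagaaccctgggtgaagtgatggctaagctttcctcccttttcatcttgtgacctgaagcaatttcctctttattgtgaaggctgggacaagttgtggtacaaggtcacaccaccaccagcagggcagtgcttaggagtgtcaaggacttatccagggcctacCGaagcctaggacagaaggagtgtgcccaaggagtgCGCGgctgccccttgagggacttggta
Kcnk2, chr1:189402224-189402523: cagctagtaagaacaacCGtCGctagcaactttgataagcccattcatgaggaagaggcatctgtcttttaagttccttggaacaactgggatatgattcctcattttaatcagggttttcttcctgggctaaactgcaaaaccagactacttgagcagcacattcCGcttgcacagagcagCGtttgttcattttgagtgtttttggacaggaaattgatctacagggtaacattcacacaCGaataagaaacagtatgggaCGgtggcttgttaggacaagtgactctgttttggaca
The Cacna1b window holds 35 CG dinucleotides, against 4 for Scn4a, 3 for Kcnf1 and 6 for Kcnk2. Kcnk2 has 4 RefSeq start windows, of which the one nearest its annotated gene start is shown. RefSeq start windows were found for 32 of the 47 tested genes (49 windows), with a median of 9 CG, against a median of 7 over all 32851 windows of the same length. The E-box CANNTG, read on both strands, occurred in 71.4% of the 49 windows and in 72.3% of all windows. Its form CAGCTG occurred in 32.7% against 16.3%, the GC box CCGCCC in 49% against 35.7%, and TATAAA in 0% against 13.6% (both strands, and CAGCTG matches are included among CANNTG). The 47 windows of 36 untested channel genes also had a median of 9 CG. CANNTG occurred in 68.1% of them, CAGCTG in 19.1%, CCGCCC in 44.7% and TATAAA in 10.6%. Some genes contribute several windows, so these shares describe the windows and carry no test.

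Levels were also expressed per kilobase of exon, with all annotated exons of a gene in GENCODE M21 merged. That length can exceed the length of the expressed transcript, so levels of different genes compare only roughly. Cacng1 stood at 1513 ± 660 normalised reads per kb (SD, n = 4) and Kcnf1 at 1295 ± 171 in the GFP cells. Cacng1 encodes the gamma subunit of the skeletal muscle L-type channel, and Kcnf1 the electrically silent subunit Kv5.1. Among sodium channel alpha subunits, Scn9a (Nav1.7) stood at 417 ± 71.4 per kb and Scn4a at 73.1 ± 44, without overlap. The ranges of Cacng1 and Kcnf1 overlapped in GFP, so their order is not fixed by these libraries. At the lower end Cacna1c (Cav1.2), Scn3a and Kcnq1ot1 averaged 2.29, 2.9 and 2.99 per kb over the 8 libraries. Their merged exon lengths were long, at 21.2, 12.5 and 93.1 kb. The plot of level by gene shows the range.

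**Figure D1:**
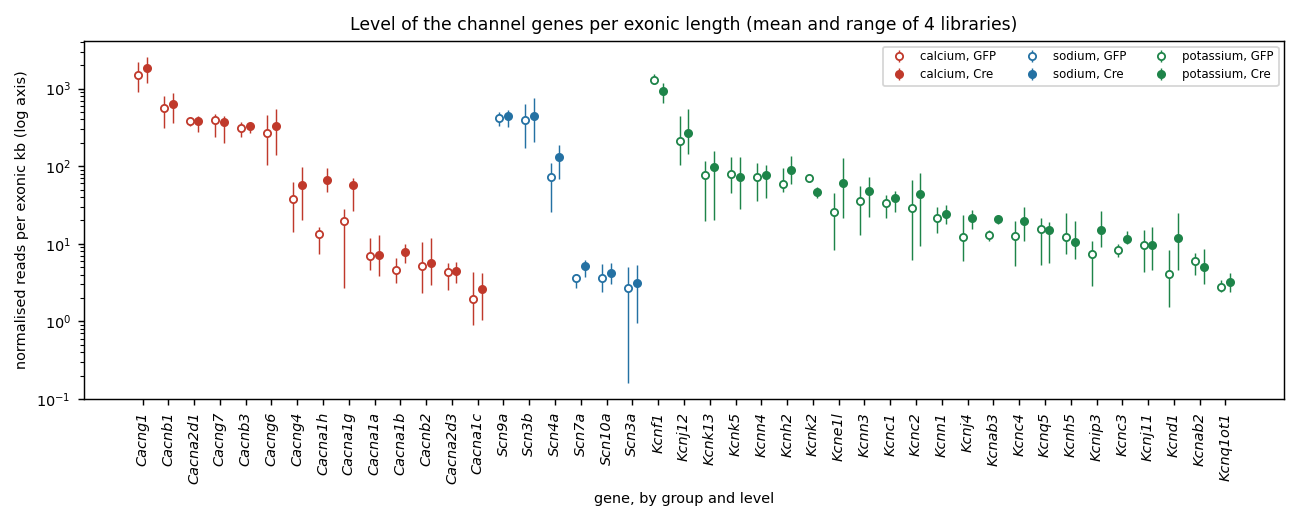
Normalised reads per kilobase of exon (vertical, log axis) for tested channel genes (horizontal), grouped as calcium, sodium and potassium channels and ordered by level. Circles are means of 4 libraries (open GFP, filled Cre) and bars run from the lowest to the highest library; the Cre and GFP bars do not meet for Cacna1h, Kcnab3 and Kcnk2.

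In the unpaired fit 2 of the 47 rose in Cre, Cacna1h among them, and 0 fell, where 1.08% of all rows tested were called, 0.837% higher and 0.248% lower. Without adjustment, p was under 0.05 for 7 higher and 2 lower genes (7.41% and 9.3% of all rows), and voom likewise called 2 higher and 0 lower. In the paired fit 22 rose and 2 fell, with 23 not called. Over all rows that fit called 43.9%, of which 22.2% of rows were higher and 21.7% lower, so a paired call was common for any gene. The 24 paired calls were 51.1% of the tested channel genes. The median log2 change of the 47 was 0.31, against -0.00 over all rows. Among calcium channel genes 7 of 14 rose, among sodium channel genes 3 of 8, and among potassium channel genes 12 of 25 rose and 2 fell. Groups did not overlap for 3 genes higher in Cre (Cacna1h and Kcnab3 among them; 4.41% of all rows) and 1 lower (Kcnk2; 6.17% of all rows). Because 1 was added before taking log2(value + 1), changes of low genes are understated.

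**Figure D2:**
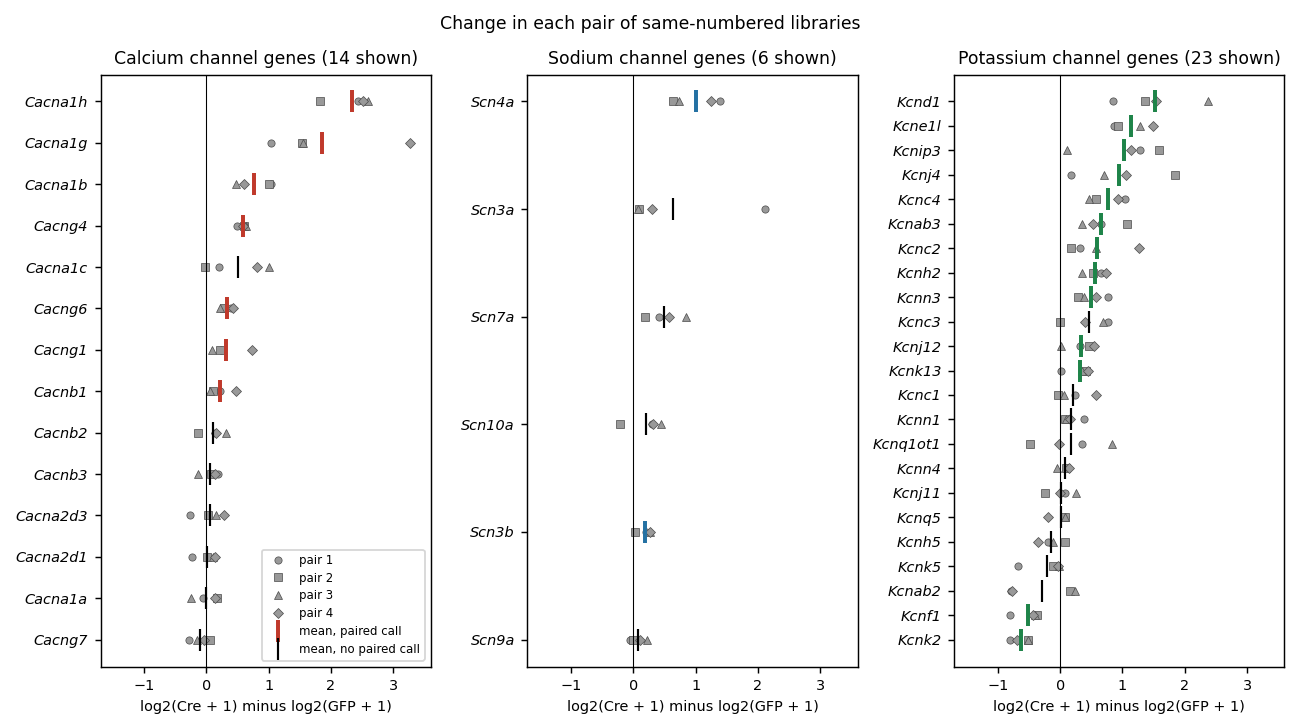
Difference of log2(value + 1) between Cre and GFP (horizontal) for tested channel genes (vertical), in 3 panels by ion. Grey symbols are the 4 pairs of same-numbered libraries and vertical ticks their mean, thick and coloured where the paired fit called the gene; calls lie mostly to the right of 0, with Kcnf1 and Kcnk2 the 2 to the left.

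Among the tested calcium channel pores, the T-type genes Cacna1h and Cacna1g had the largest changes. Cacna1h, which encodes Cav3.2 (ENSMUSG00000024112, chromosome 17, 25374285 to 25433783, minus strand, GRCm38), gave 676, 561, 447 and 916 normalised reads in the Cre group, in the order of the replicate numbers, and 125, 158, 73 and 159 in the GFP group. The same order is used for every gene below. Every Cre library lay above every GFP library, and the ratio of the means, 650 ± 200 to 129 ± 40.4 (SD, n = 4), was 5.05. The log2 change was 2.34 ± 0.30 (SE; limma, adjusted p = 0.0183, higher in 4 of 4 pairs; paired SE 0.12, adjusted p = 1.3e-06). The unpaired call ended without Cre library 1, 2 or 4 or without GFP library 1 (adjusted p up to 0.0761), while the paired call held in all 11 paired alternatives.

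Cacna1g, the second T-type gene (Cav3.1), stood at 586, 723, 723 and 269 in Cre and at 287, 248, 247 and 27 in GFP. Library 4 was lowest in both groups, and Cre library 4 lay among the GFP values, so the groups overlapped although each pair rose. Its log2 change of 1.85 passed only in the paired fit (limma, adjusted p = 4.3e-04, unpaired 0.271). Without GFP library 4 it was 1.04 in the unpaired fit, and without pair 4 it was 1.37 in the paired fit, where the call held. In library 4 the balance of the 2 genes differed from the rest: Cacna1h per kb was 3.54 times Cacna1g in Cre library 4 and 6.12 times in GFP library 4, against 0.307 to 1.2 times in the other 6. The third T-type gene, Cacna1i, averaged 9.62 normalised reads and was not tested.

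The high-voltage-activated pores in the set, which leaves out Cacna1s, averaged lower than Cacna1h and Cacna1g. Cacna1b, the N-type channel best known from nerve endings, stood at 97, 63, 57 and 99 in Cre and at 47, 31, 41 and 65 in GFP, and rose by 0.77 in the paired fit (limma, adjusted p = 0.00356, unpaired 0.246). Only GFP library 4 reached into the Cre range. The L-type gene Cacna1c lay between 22 and 90 in Cre and between 19 and 91 in GFP, with a log2 change of 0.50 that passed in neither fit (paired adjusted p = 0.0815). It overlaps Dcp1b on the other strand, and since strand use in counting is not given its low value is uncertain. Cacna1a, the P/Q-type pore, differed by 0.00 (paired 95% confidence interval -0.31 to 0.32). Cacna1d, which overlaps Dcp1a on the other strand, was not tested, at a mean of 11.1.

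Among the genes named for auxiliary calcium channel subunits, Cacng1, Cacnb1, Cacna2d1 and Cacng7 averaged 383 to 1669 per kb over the 8 libraries. Cacng1 stood at 1485, 3185, 2591 and 1853 in Cre and at 1256, 2752, 2435 and 1117 in GFP. Numbers 2 and 3 were higher than 1 and 4 in both groups, and pair 4 differed most. Its log2 change of 0.32 passed in the paired fit (limma, adjusted p = 0.0133, unpaired 0.716) and was 0.18 without pair 4 (adjusted p = 0.0316). Cacnb1, which carries the beta subunit of the skeletal muscle channel, ranged from 1640 to 3938 in Cre and from 1410 to 3640 in GFP. It rose by 0.21 in the paired fit (limma, adjusted p = 0.0223, unpaired 0.836), a call lost without pair 4 (0.13, adjusted p = 0.104). Cacng6 and Cacng4, further gamma-family genes, rose by 0.33 and 0.58 in the paired fit (limma, adjusted p = 0.00325 and 0.00112, unpaired 0.856 and 0.662). Cacna2d1, the main alpha2delta subunit of muscle, averaged 4802 ± 928 in Cre and 4714 ± 456 in GFP (SD, n = 4), with a paired 95% interval for the log2 change of -0.12 to 0.14. Cacnb2, Cacnb3, Cacna2d3 and Cacng7 had changes between -0.10 and 0.11 and were not called. Cacna2d3 overlaps Lrtm1 (mean 168) on the other strand, so its low value is uncertain too.

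The tested gamma genes sit in 2 clusters. On chromosome 7, Cacng7 (from 3332955) and Cacng6 (from 3424195) lie close together, with log2 changes of -0.10 (not called) and 0.33. On chromosome 11, Cacng1 (from 107703218) and Cacng4 (from 107732357) both rose in the paired fit. The differences between genes of a cluster were not tested.

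Of the sodium channel genes, 3 of 8 rose in the paired fit. Scn3b, which encodes a beta subunit, ranged from 1115 to 4159 in Cre and from 929 to 3443 in GFP and rose by 0.19 in the paired fit (limma, adjusted p = 0.0114, 0.0635 without pair 4, unpaired 0.888).

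Among the alpha subunits, Scn4a (Nav1.4; chromosome 11, 106318592 to 106349389) stood at 475, 1205, 1309 and 766 in Cre and at 181, 775, 781 and 321 in GFP. The value was higher in Cre in each pair, yet the spread between numbers made the groups overlap. The log2 change was 1.00 (limma, paired adjusted p = 9.0e-05, unpaired 0.388).

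Scn9a, a channel best known from sensory neurons, averaged 5615 ± 1165 normalised reads in Cre and 5323 ± 912 in GFP (SD, n = 4). Its paired interval for the log2 change was -0.04 to 0.18. Scn7a, Scn3a and Scn10a stayed below 67 normalised reads in every library and were not called (paired adjusted p from 0.0703 to 0.446). Scn3a, Scn7a and Scn9a lie in 1 cluster on chromosome 2, where Scn9a averaged 428 per kb over the 8 libraries against 2.9 for Scn3a and 4.38 for Scn7a.

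**Figure D3:**
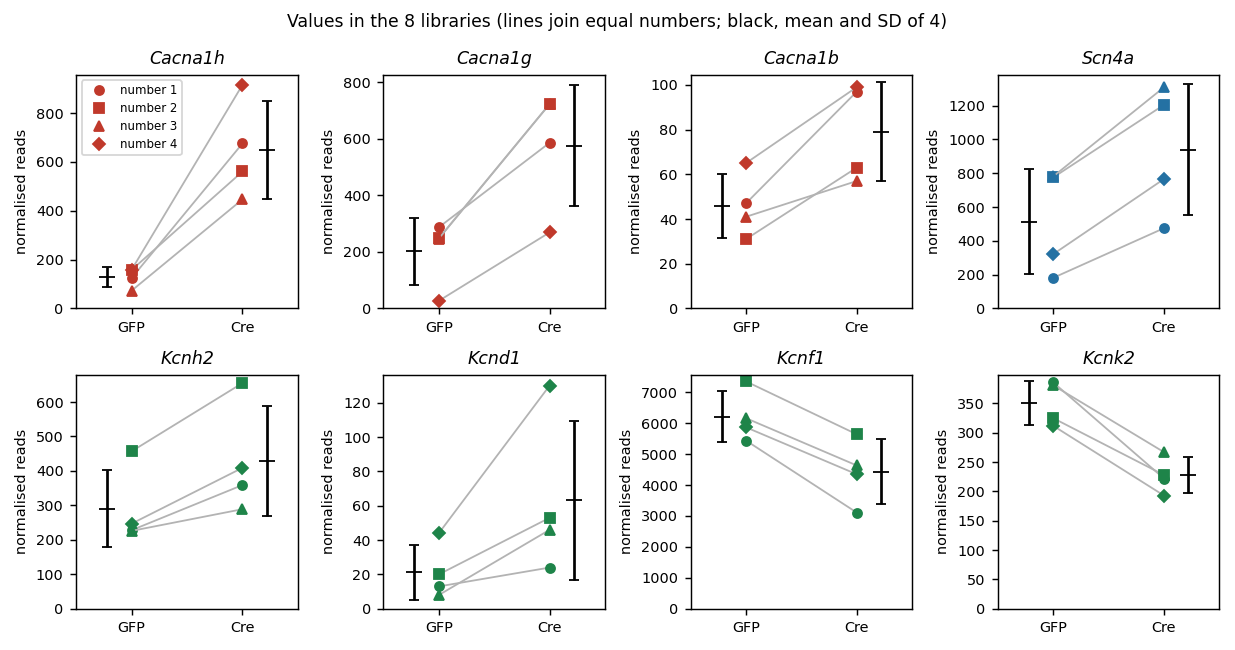
Normalised reads (vertical, from 0) of 8 channel genes in GFP and Cre libraries (horizontal); symbols mark the replicate number, grey lines join equal numbers, and black bars give the mean and SD of 4 libraries. All lines of Cacna1h, Cacna1g, Cacna1b, Scn4a, Kcnh2 and Kcnd1 go up and all lines of Kcnf1 and Kcnk2 go down, from starting levels that differ between numbers.

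The 2 potassium channel genes that fell in the paired fit were Kcnf1 and Kcnk2. Kcnf1, whose Kv5.1 subunit forms no channel alone but modifies other Kv channels (chromosome 12, 17172100 to 17176888, minus strand), stood at 3107, 5638, 4631 and 4346 in Cre and at 5437, 7349, 6160 and 5865 in GFP. Only Cre library 2 reached the GFP range. The Cre mean was 71.4% of the GFP mean (log2 change -0.51 ± 0.18; limma, adjusted p = 0.217, lower in 4 of 4 pairs; paired adjusted p = 1.9e-04).

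Kcnk2 encodes the 2-pore channel TREK-1, which is opened by stretch and lipids (chromosome 1, 189207930 to 189402218, minus strand). It stood at 222, 228, 267 and 193 in Cre and at 386, 325, 381 and 312 in GFP, without overlap. The Cre mean was 64.8% of the GFP mean (log2 change -0.63 ± 0.14; limma, adjusted p = 0.087; paired adjusted p = 2.7e-04). Both decreases kept their paired call in all 11 paired alternatives. Kcnk13 (THIK-1), another leak channel named after its values were seen, rose by 0.31 in the paired fit (adjusted p = 0.0305, unpaired 0.893), a call lost without pair 2, 3 or 4, and Kcnk5 differed by -0.21 and was not called (paired adjusted p = 0.182).

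Several voltage-gated potassium channel genes rose in the paired fit. Kcnh2, the Kv11.1 or hERG channel, stood at 359, 655, 289 and 409 in Cre and at 228, 457, 226 and 247 in GFP. Library 2 was highest in both groups, and the log2 change of 0.56 passed in the paired fit (limma, adjusted p = 4.6e-04, unpaired 0.407). Kcnd1 (Kv4.1, an A-type channel) stood at 24, 53, 46 and 130 in Cre and at 13, 20, 8 and 44 in GFP, a log2 change of 1.53 (limma, paired adjusted p = 9.2e-04, unpaired 0.271). Kcnc4 (Kv3.4), which is expressed in skeletal muscle, rose by 0.76 in the paired fit (adjusted p = 0.00515, unpaired 0.563). Kcnc2, named after its values were seen, rose by 0.59 in the paired fit (adjusted p = 0.0126, unpaired 0.804). Leaving out pair 3 or 4 ended that call (adjusted p up to 0.0666), with a change of 0.36 without pair 4.

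Accessory Kv genes gave further paired calls. Kcne1l, the X-linked beta-subunit gene also called KCNE5, stood at 63, 79, 33 and 198 in Cre and at 34, 41, 13 and 70 in GFP (log2 change 1.14; limma, paired adjusted p = 4.9e-04, unpaired 0.411). Kcnip3, a calcium-binding partner of Kv4 channels also known as DREAM, and Kcnab3, a beta subunit, were named after their values were seen. They rose by 1.03 and 0.65 in the paired fit (adjusted p = 0.00771 and 0.0143, unpaired 0.346 and 0.165). Kcnab3 was the only tested potassium channel gene higher in Cre without overlap, at 52 to 66 against 31 to 43, and its call ended without pair 2 (adjusted p = 0.0657).

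Of the inward rectifiers, Kcnj12 (Kir2.2) stood at 1493, 626, 391 and 417 in Cre and at 1205, 453, 386 and 284 in GFP. Number 1 stood apart in both groups, and the paired fit called a rise of 0.34 (limma, adjusted p = 0.0102, 0.0532 without pair 4, unpaired 0.819). Kcnj4 (Kir2.3), named after its values were seen, rose by 0.94 in the paired fit (adjusted p = 0.0148, unpaired 0.296), a call lost without pair 2 or 4 (adjusted p up to 0.0622). Kcnj11, the pore of the ATP-sensitive channel, differed by 0.02, while Abcc8, one of its regulatory partners, rose by 1.26 in the paired fit (adjusted p = 0.00126, unpaired 0.289). Abcc9, another partner, was more abundant (Cre mean 564, against 73.8 for Abcc8). It rose by 0.37 in the paired fit (limma, adjusted p = 0.00669, unpaired 0.809). Kcnj2 (Kir2.1), the inward rectifier linked to myoblast hyperpolarisation, reached 1 CPM in 3 libraries only and was not tested. It stood at 88, 21, 11 and 56 in Cre and at 61, 5, 7 and 27 in GFP, higher in 4 of 4 pairs.

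Among calcium-activated channels, Kcnn3 (SK3), which marks immature and denervated muscle, stood at 230, 611, 754 and 413 in Cre and at 134, 500, 581 and 278 in GFP. It rose by 0.50 in the paired fit (limma, adjusted p = 0.00133, unpaired 0.695). Kcnn4 (the intermediate-conductance channel) averaged 391 ± 142 in Cre and 376 ± 155 in GFP (SD, n = 4), with a paired interval of -0.09 to 0.24. Kcnma1 (the BK channel) stayed between 4 and 33 and was not tested. The non-coding Kcnq1ot1 stood at 225 to 396 in Cre and 223 to 318 in GFP, and was higher in Cre in 2 of 4 pairs and lower in 2.

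The 43 untested genes had a median level of 8.75 normalised reads and none averaged above 36.1. The highest of each group were Cacng8, Cacnb4 and Cacna2d2 (calcium), Scn2a, Scn11a and Scn8a (sodium) and Kcnab1, Kcne3 and Kcnj2 (potassium). Fitted with no filter, 0 of the 43 passed unpaired (limma), and 3 were called higher and 0 lower with pairing: Kcne3, Kcnj2 and Kcnt2. Over the 8066 rows below the filter that paired fit called 6.65% higher and 0.657% lower (14.9% and 12.1% of all 20976 rows), so the 3 of 43 lie near the background. Of these Kcnt2, named after its values were seen, showed no overlap, at 21 to 49 in Cre and 2 to 11 in GFP. Kcnh1, an ether-a-go-go channel described in myoblast fusion, ranged from 3 to 12 in Cre and from 10 to 24 in GFP, lower in 4 of 4 pairs. It overlaps Hhat (mean 261.5) on the other strand, so its low value is uncertain, as for Cacna1c. Kcnj8, a pericyte-associated gene, stood at 11, 1, 6 and 0 in Cre and at 1, 0, 0 and 0 in GFP.

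Differences between replicate numbers were the main source of variation in these genes. On the log2 scale a median of 86.1% of the variance of a tested channel gene lay between numbers and 5.9% between Cre and GFP, against 70.2% and 15.4% over all rows tested. The number outweighed the group in 38 of 47 channel genes (80.9%) and in 79.8% of all rows. These are shares of the summed squares, with no allowance for there being more numbers than groups, which favours the numbers. Cacna1h, Kcnk2 and Kcnab3 lay at the other end, with 80.8 to 88.7% of their variance between Cre and GFP. Kcnq1ot1 had low shares of both.

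**Figure D4:**
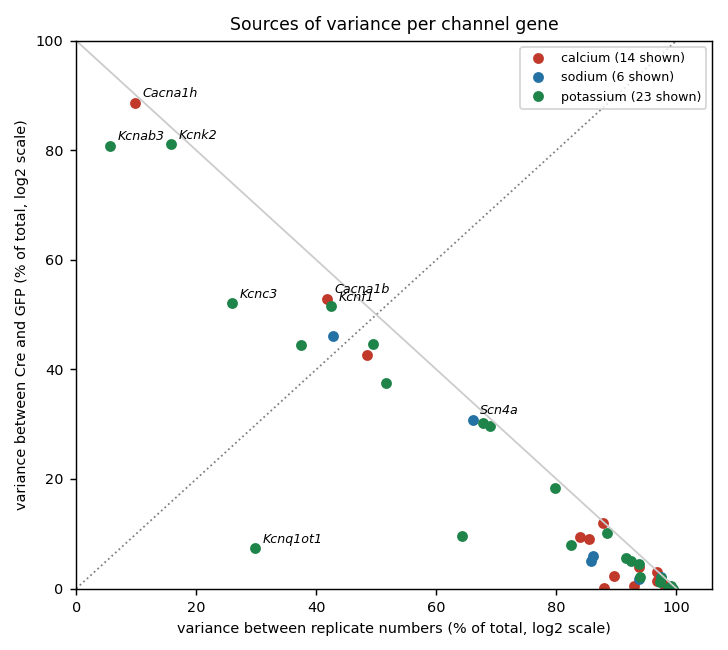
Share of the log2 variance of tested channel genes between replicate numbers (horizontal, %) and between Cre and GFP (vertical, %); points are genes coloured by ion, the dotted line marks equal shares and the solid line a sum of 100%. Most genes crowd at the lower right, with a median of 86.1% between numbers, and Cacna1h, Kcnk2 and Kcnab3 sit at the upper left.

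The pattern over numbers followed the split by Xist and Y-linked transcripts in some genes. In 13 of the 47 all libraries numbered 2 and 3 lay above all those numbered 1 and 4 (8.28% of all rows), and in 2, Cacna1a and Kcnc2, below (7.01% of all rows). The 13 included Scn4a, Cacng1, Cacnb1, Cacng6, Kcnc4, Kcnn3 and Kcnn4. The summed level of differentiated muscle markers (8 of 8 tested, among them Myog, Acta1 and Ttn) moved with them. It was 81299, 302328, 312343 and 178546 for Cre numbers 1 to 4, against 62671, 259651, 242359 and 115777 for GFP. Single markers did not all follow the split. Ckm stood at 44, 170, 117 and 190 in Cre and at 25, 154, 89 and 147 in GFP. For Myog, Cre library 4 (22478) lay above GFP library 3 (20534). All 8 markers also rose in the paired fit (22.2% of all rows), with a median log2 change of 0.41. Their part in the channel results was not tested, and with 2 numbers on each side sex and the extent of differentiation cannot be told apart.

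Markers of other cells were read beside the channel genes. Pericyte and smooth muscle markers summed to 91472 to 130813 in Cre and 52356 to 83642 in GFP. In the paired fit 5 of 7 tested members rose and 0 fell, where 22.2% of all rows rose and 21.7% fell. In the unpaired fit 1 rose (0.837% of all rows). That gene was Rgs5, at 36372 ± 12938 in Cre and 8646 ± 3475 in GFP (SD, n = 4), a log2 change of 2.08 (limma, adjusted p = 0.0277, paired 3.5e-08). The smooth muscle myosin Myh11 stayed below 10, and Pdgfrb stood at 18 to 82 in Cre and 20 to 55 in GFP. The sum rested largely on Rgs5, Acta2 and Des. Acta2 averaged 29084 in Cre and 29166 in GFP, and Des is also on the muscle stem cell and myoblast list. The neuronal list summed to 1138 to 2433 in Cre and 561 to 2544 in GFP, with 3 of 9 genes tested and 2 rising in the paired fit. Schwann and glial markers summed to 188 to 264 in Cre and 197 to 337 in GFP with 0 of 2 called. The endothelial sums were 276 to 408 and 141 to 182. Tek averaged 209 in Cre and 77.5 in GFP and rose in the paired fit, and the untested Kdr averaged 26.5 and 6.5. Pecam1, at 93.2 and 77.8, was not called. The fibro-adipogenic sums were 655 to 911 and 178 to 293, where Ly6a and Col1a1 rose in both fits. Pdgfra, at 122 in Cre and 119 in GFP, was not called, and the untested Dcn averaged 5.5 and 6.5. Immune markers summed to 89 to 396 and 28 to 243, resting almost wholly on Cd68. Their part in the channel results was not tested.

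Other genes of membrane excitability, from 4 lists, gave 0 calls among 41 tested in the unpaired fit, and 19 higher and 5 lower in the paired fit (58.5% against 43.9% of all rows), with a median log2 change of 0.13. Of 14 auxiliary and anchoring proteins 8 rose and 2 fell. Stac3, which links the L-type channel to excitation-contraction coupling, rose by 0.34 and its relative Stac2 fell by 0.44 (paired adjusted p = 4.5e-04 and 5.7e-05, unpaired 0.239 and 0.29), and Gem, a small GTPase that inhibits calcium channels, rose by 0.86. Of 16 other cation channels 4 rose and 2 fell, with the pacemaker channel Hcn2 at 1.23 and the stretch channel Piezo1 at -0.22. Of 7 ion pump genes 6 rose and 1 fell, led by the sodium pump subunit Atp1b2 at 1.27 and the calcium pump Atp2b4 at 0.71. Rest, the repressor of many neuronal channel genes, differed by 0.06 and was not called, and of its 3 Rcor partners Rcor2 rose by 0.28 in the paired fit.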

How the data were processed

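Per the labels' protocols, total RNA was sequenced from stranded libraries. The submitters' processing notes list STAR 2.5.3a, featureCounts 1.5.3 (Subread), DESeq and the builds mm10 and GRCm38; for their order, settings, annotation and use of strand, the entry is "not given in the sources used here". The deposited values are whole numbers, treated here as a score: gaps and doublings among the low values show counts that the authors scaled by 1 factor per library and rounded, so no count model was fitted. Coordinates are those of the table.

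Rows with at least 1 CPM (of the scaled total) in at least 4 of 8 libraries were kept (12910 of 20976, removing 8066). limma 3.58.1 in R 4.3.3, with a trend, was fitted to log2(value + 1), with Benjamini-Hochberg adjustment over all rows kept and a threshold of 0.05. A second fit added the replicate number as a block. The numbers were taken to pair the libraries because same-numbered libraries departed together from their group means (r from 0.82 to 0.908 over genes), against -0.597 to 0.477 for other pairs; the labels state no pairing. p-values of the unpaired fit measure the spread between libraries. Those of the paired fit measure the spread of the differences between same-numbered libraries. Replicates differed well beyond counting noise (chi-square per degree of freedom 18.3 to 125). The scripts were tested on simulated data.

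Genes were named if called unpaired, among the 6 smallest paired p-values or the 3 highest means of their group, on a list of genes known in muscle, or among the 3 highest untested of their group. Others named to complete a family are Cacna1a, Cacna1d, Cacna1i, Cacnb2, Cacnb3, Cacna2d3, Cacng7, Scn10a, Kcnk5 and Kcnj11. Some genes are counted but not reported by name here, in the text or the figures. Members and lists were chosen with earlier results of these data known. Alternatives were other pseudocounts, filters and scalings, voom, and leaving out each library or pair; those combining the block with another setting were chosen after seeing the data, except for voom and left-out pairs.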

Additional observations from a re-analysis of the deposited data

Results flagged for a closer look

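Of 70 groups of 4 libraries checked among the named channel genes, 9 held a library far from the other 3 by Dixon's criterion, where chance gives about 1 in 20. In GFP, Kcnh2 stood at 457 in library 2 with the next value at 247, and Cacna1g at 27 in library 4 with the next at 247. Cacna1c stood at 91 in GFP library 2, next to 29, and Cre library 2 was also the highest of its group, at 90. Among untested genes, number 1 was high in both groups for Kcnab1 (98 in Cre, next 21; 83 in GFP, next 24) and Kcne3 (139 in Cre, next 27; 58 in GFP, next 10). Kcnh1 stood at 24 in GFP library 2 (next 12), and Kcnj8 at 1 in GFP library 1 with the others at 0. At that floor the criterion is always met, so the Kcnj8 flag carries no information.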

How the results depend on the processing

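Without pairing, the count of channel genes called higher (2) held under other pseudocounts, filters, scalings and voom, and fell to between 0 and 1 when a single library was left out; the count called lower was 0 in each of these. Over all rows, leaving out a library took the calls from 108 higher and 32 lower to 10 to 51 higher and 1 to 7 lower. With the replicate block the counts were 22 higher and 2 lower, likewise 22 and 2 with voom, and 15 to 22 higher and 2 lower without 1 pair. A filter of 5 CPM left 27 channel genes in the paired fit, of which 15 were higher (22.1% of all rows under that filter), and 15 of the same 27 were higher with the filter of 1 CPM. Genes of the related lists (0 and 0 unpaired) gave 19 higher and 5 lower with the replicate block, 18 and 5 with voom, and 16 to 18 higher (17 without pair 1) and 2 to 5 lower (4 without pair 4) without 1 pair; with no filter 3 were lower in the paired fit. Of the 24 paired calls 16 held in all paired alternatives.

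Small changes turned sign. Cacna2d1 (0.01) came to -0.01 with equal totals or voom, in both fits, and to between -0.07 and 0.16 without 1 library or between -0.03 and 0.09 without 1 pair. Leaving out single libraries in the unpaired fit moved Cacnb1 to between -0.03 and 0.46, Cacng6 to between -0.02 and 0.68, and Kcnj12 to between -0.08 and 0.76. It moved Kcnk13 to between -0.24 and 0.94, Kcnn4 to between -0.24 and 0.37, Scn3a to between -0.30 and 1.17, and Scn3b to between -0.15 and 0.52. Scn9a ranged from -0.04 to 0.22. Depth limits the 43 untested genes, none of which averaged above 36.1 normalised reads.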
